A study of Mus musculus with 25 samples.

Results

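In cells labelled as retinal progenitors, 151 of 28175 regions of 10 kb around transcript starts gained accessible DNA late in development. They were chosen by their ATAC-seq counts, scaled to a fixed library total (CPM): the lowest value among the 4 libraries of embryonic day 18 (E18) and postnatal day 0 (P0) had to reach 10 CPM and at least 1.7 times the higher of the E12.5 libraries. The 151 regions belong to 139 gene symbols and, since some overlap, to 122 separate loci on 20 chromosomes. The rise from E12.5 to E18 and P0 is how the regions were selected, and it is described without a test. Libraries of E14, E16.5 and P2 had no part in the choice, and the tests rest on them. The rule turned round, for regions that closed, was met by 2036 regions. At the outer ends of the regions, median CPM per window over all regions was 0.129 and 0.154 at E12.5. It was 0.0738 to 0.097 at E18 and P0. The part of this difference in either number was not tested. The 2036 were not recounted with another scaling, so the numbers of opening and closing regions are not compared.

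All samples were retinal cells of CD1 mice, divided by the presence of green fluorescent protein. The GFP+ fraction is labelled as retinal progenitors and the GFP- fraction as post-mitotic cells of the retina. The labels give no treatment and no further genotype, and do not name the reporter that drives GFP. ATAC-seq, in which a transposase cuts accessible DNA, covered GFP+ cells only, with 1 library of E10 (labelled as day 10/11) and a pair for every other stage: E12.5, E14, E16.5, E18, P0, P2. RNA-seq covered both fractions at E14, E18 and P2 with 2 libraries each. It is not stated whether replicates are separate animals. The p-values therefore reflect spread among these samples, which may be technical.

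Retinal progenitors divide and give rise in sequence to the neurons of the retina and, last, to Mueller glia. Early progenitors make ganglion, horizontal and cone cells, and late progenitors make rods, bipolar cells and glia. Nuclear factor I proteins are known for roles in late progenitors, whereas Sox2 and Six3 are expressed in progenitors throughout. Accessible DNA marks promoters and candidate enhancers.

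Among the members are 7 microRNA genes (Mir9-2, Mir9-3, Mir124a-1, Mir7-2, Mir3078, Mir378b and Mir6996), and mature sequences from RefSeq (GRCm38.p6) were matched by symbol for 5 of them. The 4 products below are shown because Mir9-2 and Mir9-3, at separate opening loci, encode the same mature miR-9, and Mir7-2 and Mir378b show how other members differ from it. Capitals mark the seed, bases 2 to 8, which pairs with target RNAs, and none of these 4 seeds is shared.
mmu-miR-9-5p: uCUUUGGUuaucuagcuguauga
mmu-miR-9-3p: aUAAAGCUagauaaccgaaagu
mmu-miR-7a-5p: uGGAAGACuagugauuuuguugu
mmu-miR-378b: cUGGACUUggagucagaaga

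In some members the largest rise lay at the transcript start itself. The 5 promoters below are shown for its timing: in Olig2, Klf9 and Gpm6b most of the rise came after E14, and in Sox2 and Zfp36l1 most had come by E14. Each runs from 250 bases before to 50 after a start given by RefSeq on GRCm38.p6, a later build than that of the counts, and was matched by symbol, so it need not be the same start. The positions are chr16:91225300-91225599 (plus strand) for Olig2, chr19:23140976-23141275 (plus) for Klf9, chrX:166238693-166238992 (plus) for Gpm6b, chr3:34649745-34650044 (plus) for Sox2 and chr12:80112964-80113263 (minus) for Zfp36l1. Capitals mark matches on either strand to TTGGC, to which one arm of nuclear factor I binds, and to TGANTCA, an AP-1 site.
Olig2: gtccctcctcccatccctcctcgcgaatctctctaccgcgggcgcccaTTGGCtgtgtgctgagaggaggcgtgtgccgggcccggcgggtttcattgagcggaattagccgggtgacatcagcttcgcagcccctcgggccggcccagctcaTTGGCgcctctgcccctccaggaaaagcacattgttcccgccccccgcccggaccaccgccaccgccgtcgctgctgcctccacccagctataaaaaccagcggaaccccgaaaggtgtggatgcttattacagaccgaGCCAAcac
Klf9: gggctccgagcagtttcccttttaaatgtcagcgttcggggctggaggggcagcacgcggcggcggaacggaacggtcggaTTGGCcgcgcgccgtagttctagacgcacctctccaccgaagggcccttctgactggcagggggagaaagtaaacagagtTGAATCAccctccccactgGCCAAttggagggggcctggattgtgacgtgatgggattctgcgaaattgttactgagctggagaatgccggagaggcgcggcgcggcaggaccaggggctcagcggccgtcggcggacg
Gpm6b: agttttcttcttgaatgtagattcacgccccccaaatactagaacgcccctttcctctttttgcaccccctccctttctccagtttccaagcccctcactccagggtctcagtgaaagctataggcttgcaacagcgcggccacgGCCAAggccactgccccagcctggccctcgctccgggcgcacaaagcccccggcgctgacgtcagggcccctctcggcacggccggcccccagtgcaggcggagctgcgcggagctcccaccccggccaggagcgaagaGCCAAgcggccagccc
Sox2: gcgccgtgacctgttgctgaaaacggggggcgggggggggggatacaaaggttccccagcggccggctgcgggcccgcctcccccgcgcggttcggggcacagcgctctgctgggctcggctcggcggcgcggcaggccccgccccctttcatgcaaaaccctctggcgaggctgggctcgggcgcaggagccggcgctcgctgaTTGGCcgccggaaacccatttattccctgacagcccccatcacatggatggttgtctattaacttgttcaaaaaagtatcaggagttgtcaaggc
Zfp36l1: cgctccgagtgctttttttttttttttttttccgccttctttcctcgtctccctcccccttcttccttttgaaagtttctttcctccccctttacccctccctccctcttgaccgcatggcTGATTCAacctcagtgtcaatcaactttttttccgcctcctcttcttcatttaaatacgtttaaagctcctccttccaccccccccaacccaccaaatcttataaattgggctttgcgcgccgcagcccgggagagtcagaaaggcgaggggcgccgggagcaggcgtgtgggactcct

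Promoters were matched for 98 of 139 symbols, giving 130 sequences of 300 bases, several of them from 1 gene. On both strands, TTGGC was present in 44.6% of them and in 46.7% of all 32851 promoters of the table, and TTGGCA, which always holds TTGGC, in 11.5% and 14.1%. CAGCTG, an E-box of proneural factors, was present in 28.5% and 16.3%, and the E-box CATCTG in 17.7% and 17.2%. TAATTA, a homeodomain site, was present in 5.38% and 5.29%, TAATCC, an OTX and CRX site, in 8.46% and 7.06%, and TGANTCA in 9.23% and 7.81%. These are matches of letters, without a test, and not measured binding. Median GC content was 55.7% in members' promoters and 52.7% in all.

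By the values that chose them, members had ratios from 1.7 to 5.31 with a median of 1.96. The ratio was at least 2 in 66 members and at least 3 in 12. The highest belonged to a start of Pou2f1, which encodes the transcription factor Oct1, with 8.69 and 10.8 CPM at E12.5, 57.5 and 59.0 CPM at E18 and 69.7 and 65.2 CPM at P0. Leaving out predicted genes, just inside the threshold lay Snord19 (53.8 CPM against 31.6 CPM), Itgb5 (73.3 against 43.1) and Brd8 (72.9 against 42.7), and just outside lay Gsg1l (50.4 against 29.6), Kbtbd11 (53.9 against 31.8) and Adam12 (49.4 against 29.2). The highest mean at E18 and P0 was 301 CPM, at Abcd4. With CPM scaled by TMM factors, which were 1.06 and 1.08 at E12.5 and 0.918 to 0.949 at E18 and P0, 359 regions met the rule.

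Library totals over all regions were 11157105 to 94496115 counts. Counts in the central 400 bp stood 6.4 times above those of the 6 outermost windows at E10 and 12.2 times in P2 replicate 2. They stood 18.5 to 28.5 times above in the other 11 libraries, so E10 and P2 replicate 2 stand apart. Among those 11 the E12.5 libraries were lowest, at 19.9 and 18.5 times. The E18 and P0 libraries, with which the rule compares them, stood at 25.05 to 28.5 times. The part of this difference in the choice of members was not tested. In RNA, E14 GFP- replicate 2 was closest across 14276 genes to E14 GFP+ replicate 2 (r = 0.978 across genes, which are not independent replicates) and correlated at 0.746 with its own partner. By this measure the library labelled E14 GFP- replicate 2 goes against its label. FPKM is a level scaled by transcript length and library size. The 4 E18 libraries stood apart in Malat1, a noncoding RNA of the nucleus. It ranged from 1706 to 3935 FPKM among them and from 79.9 to 134.9 FPKM among the other 8. They also stood apart in the share of 66 histone genes, which was 2.47% to 9.35% among them and 0.00668% to 0.0349% among the other 8.

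The median member stayed near its E12.5 level at E14 and stood higher from E16.5 on, with a wide spread at E14, where the ratios ran from 0.602 (10th percentile) to 1.68 (90th). The median ratio of mean CPM to that of E12.5 was 1.1 at E14, 1.87 at E16.5, 2.24 at E18, 2.38 at P0 and 2.59 at P2. Over the 17406 regions that reached 10 CPM in the E18 and P0 libraries, the medians from E14 on lay between 1.03 and 1.07. In the single E10 library the medians were 1.31 for the members and 0.952 for those regions. Central over outermost counts were lowest in that library, at 6.4 times, and the part of this was not tested. Since E12.5 chose the members, nothing is read from 81 members wholly above and 44 wholly below E12.5 at E14, beside 32.7% and 52.3% of all regions. The same holds for P0 against E18, with 65 above and 37 below, beside 21.0% and 35.2%.

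**Figure D1:**
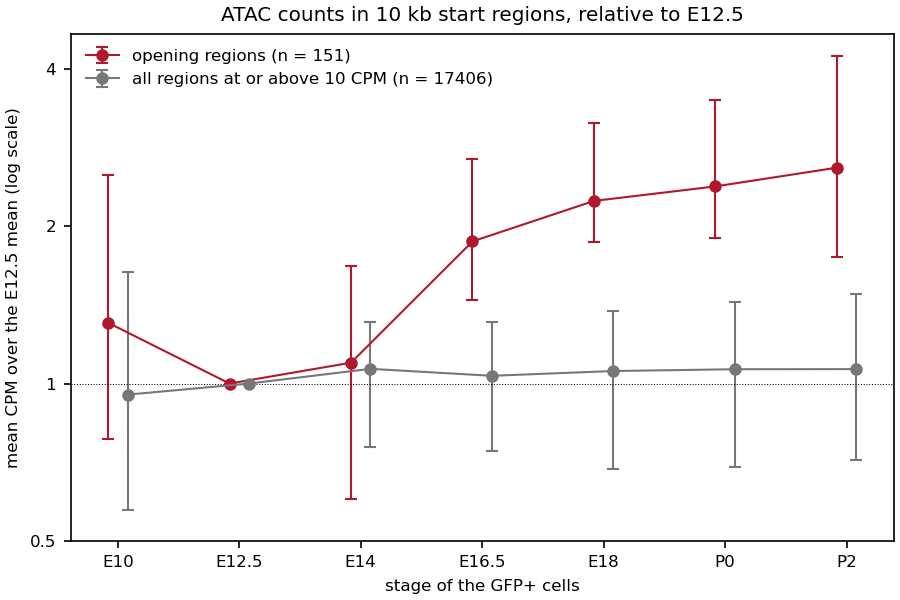
Mean ATAC CPM at each stage divided by the E12.5 mean (log scale), for the 151 opening regions and for all 17406 regions at or above 10 CPM. Points are medians over regions and bars run from the 10th to the 90th percentile. The opening regions stand at 1.1 at E14 and 1.87 at E16.5, and the medians of all regions from E14 on stay between 1.03 and 1.07.

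On libraries the rule did not use, 82 of 151 members rose from E14 to E16.5 and 0 fell (edgeR's quasi-likelihood test, adjusted p under 0.05), beside 1.6% of all 27668 regions tested called higher and 1.17% lower. The median log2 fold change was 0.77 over the members and 0.01 over all regions, and 145 members had a positive value. Counted once per locus, 69 of 122 loci rose. All 151 members passed the filter on low counts. In the central 2 kb, 70 members rose and 0 fell, beside 2.15% and 1.49% of all regions.

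Both E16.5 libraries lay above both E14 libraries in 140 members and below them in 4, beside 25.3% and 31.7% of all regions. The number called was 132 without either P2 library, 51 and 47 without E14 replicate 1 and 2, and 82 with all, with 0 lower each time. Of the calls over all regions 57.7% were higher, against 71.3% with DESeq2 and 47.6% with library totals in place of TMM. In bulk samples, more cells with an open site and more opening per cell cannot be told apart.

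**Figure D2:**
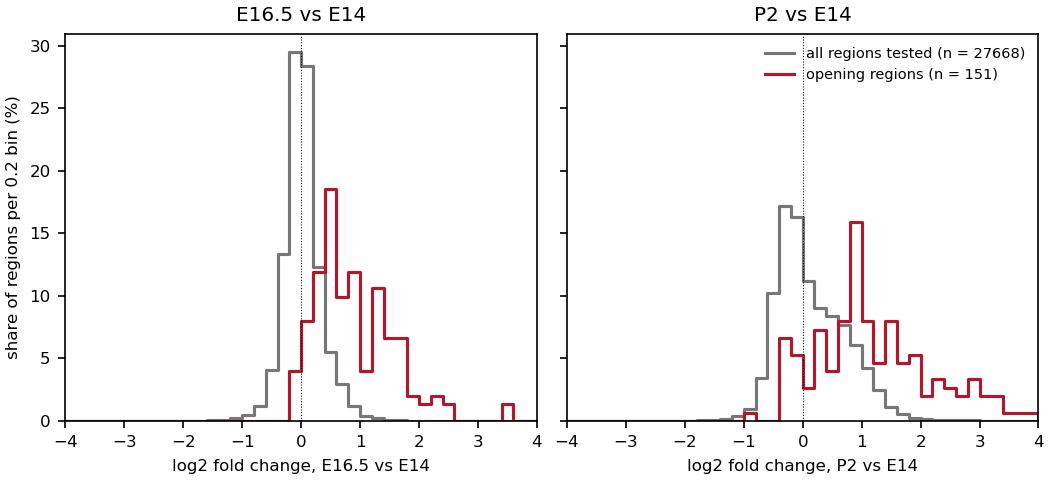
Distribution of log2 fold changes in ATAC counts for E16.5 against E14 and P2 against E14, as the share of regions per bin of 0.2, for the 151 opening regions (red) and all 27668 regions tested (grey). The opening regions have medians of 0.77 and 0.99, and the grey curves are centred near 0.

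From E14 to P2, 110 members rose and 1, Xist, fell, beside 7.37% and 7.91% of all regions. The median log2 fold change was 0.99 over the members and 0.02 over all regions. Both P2 libraries lay above both E14 libraries in 131 members and below them in 4, beside 35.2% and 23.5% of all regions. From E16.5 to P2, 49 members rose and 6 fell, beside 6.15% and 7.16%, with a median of 0.22 against 0.05, and 102 lay wholly above and 15 wholly below, beside 36.7% and 19.3%. The contrasts with E14 share the same E14 libraries. For P2 against E14, the calls were 118 higher and 21 lower without P2 replicate 1, and 133 and 2 without P2 replicate 2.

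The later contrast turned on the P2 libraries. For P2 against E16.5 the calls were 55 higher and 55 lower without P2 replicate 1, and 106 and 6 without P2 replicate 2. They were 31 and 1 without E16.5 replicate 1, 26 and 0 without E16.5 replicate 2, and 32 and 1 without either E14 library. Library totals in place of TMM moved the median of all regions to 0.18 for P2 against E14 and to 0.23 for P2 against E16.5, and the share of higher calls in the latter from 46.2% to 58.0%.

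Counts away from the starts moved as well. In the 6 outermost windows of the members the median CPM per window was 0.153 and 0.146 at E14, 0.225 and 0.236 at E16.5, and 0.317 and 0.488 at P2. Over all regions it was 0.0887 and 0.081, 0.0849 and 0.101, and 0.0891 and 0.198, so that P2 replicate 2 was high away from starts in general. In the central 2 kb, 97 members rose from E14 to P2 and 1 fell, beside 7.51% and 11.2% of all. In the flanking 8 kb, 82 rose and 2 fell, beside 9.21% and 7.96%, and the calls numbered 48 without E14 replicate 1, 49 without E14 replicate 2 and 128 without P2 replicate 2.

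Marker genes of other cell types were read in the same libraries. The summed CPM of 6 microglial genes was 36.5 to 38.7 at E14, 30.1 to 31.6 at E16.5 and 41.9 to 83.3 at P2. For 19 rod genes it was 304 to 307, 289.7 to 299.9 and 377 to 475, and for 7 endothelial genes 158 to 163, 195 to 209 and 256 to 321. Microglial and rod sums were thus lower at E16.5 than at E14, endothelial sums were higher, and all 3 were higher at P2. The sum of lens genes was also higher, at 95.39 to 95.43 at E14 and 101.6 to 199.5 at P2. So was that of erythroid genes, whereas mesenchyme sums overlapped and S phase sums fell. P2 replicate 2 was high away from starts in general, and its part in these sums was not tested. RNA of the endothelial genes summed to 155 to 159 FPKM in GFP+ and 57.2 to 62.7 FPKM in GFP- cells at E18. At P2 it summed to 234 to 245 and 104 to 110 FPKM. None of the genes in the lists above is a member. Of other cell type lists, that of pigment epithelium holds the member Ttr, that of amacrine cells Ptf1a and that of Mueller glia Rlbp1. Pigment epithelium sums were 163 to 170 CPM at E14 and 185 to 209 CPM at P2. Amacrine sums were 758.8 to 784.5 CPM and 877 to 1028 CPM, and Mueller glia sums 782 to 790 CPM and 1008 to 1038 CPM. The part of any of these cells in the rise was not tested.

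The rise came at different times in different loci. As a share of the rise from E12.5 to E18 and P0, the median locus stood at 5.6% at E14, 71.3% at E16.5 and 115% at P2. At least 50% was reached by E14 in 21 of 122 loci, between E14 and E16.5 in 69, and later in 32. Sox2, Zfp36l1, Insm1 and Kif20a belong to the first kind, and Pou2f1, Fxyd3, Nfix, Krt15, Prss56 and Irx5 to the last. These shares use the libraries of the rule and are a description.

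Within the regions, the 200 bp window with the largest rise lay over 1000 bp from the start in 83 members (55.0%), against 31.1% of the 17406 regions at or above 10 CPM. It lay within 200 bp in 35 members (23.2%), against 50.1%. The libraries of the rule placed these windows, so the shares are a description. Over the 17406 regions the median ratios to E12.5 were 1.06 at E18 and 1.07 at P0, so their windows mark smaller rises. The window was at the start in 13 of the 21 loci that had risen by E14, in 11 of the 69 and in 8 of the 32. By the mm9 exons of the deposited exon table, these windows fell in introns in 63 members, between genes in 54 and in exons in 34. Windows of other regions were not placed in this way, so the counts are not compared with any background. At E16.5 and E14, which did not choose the windows, both E16.5 libraries were above both E14 libraries in 133 of 151, with a median ratio of 2.29, against 37.0% and a median ratio of 1.045 over the 17406 regions.

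**Figure D3:**
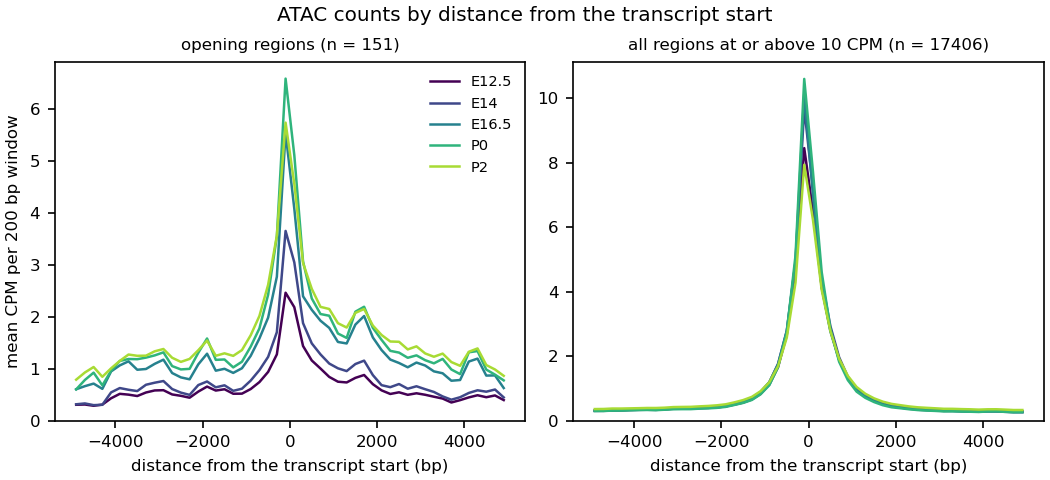
Mean ATAC CPM per 200 bp window by distance from the transcript start at 5 stages. Left, the 122 loci of the opening regions, each by its region of highest ratio (the panel title counts all 151 regions). Right, all 17406 regions at or above 10 CPM, on a different vertical scale. Over these loci the window just before the start goes from 2.47 CPM at E12.5 to 3.66 at E14 and 5.55 at E16.5. The window 1700 bp downstream goes from 0.883 to 1.16 and 2.02.

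Noncoding transcripts gave 31.8% of members and 15.0% of all regions, and 35 members hold the start of another gene. Within 100 kb of each other lay 8 pairs of loci, among them Mir6996 and Notch1 (23.7 kb) and Rlbp1 with Fanci beside Mir9-3 (97.7 kb). Of 297 genes with a region in 24 lists of cell types and pathways, 20 are members (6.73%), against 139 of 24249 symbols (0.573%). The lists were chosen with earlier results of these data known. All symbols were counted, also those whose regions did not reach 10 CPM at E18 and P0. These shares are therefore a description, and nothing is read from their difference.

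Nfia and Nfix, transcription factors of the nuclear factor I family, are late progenitor members. The Nfia region (chr4:97243634-97253633, mm9, plus strand) held 34.2 and 33.0 CPM at E14, 96.9 and 119 CPM at E16.5 and 133 and 112 CPM at P2, so that E16.5 and P2 overlapped and both lay above E14. The log2 fold change from E14 had an adjusted p of 3.16e-10 by edgeR at E16.5, and it was 1.73 ± 0.24 (SE, edgeR adjusted p = 3.51e-11) at P2. The leading window, in an intron 1100 bp downstream of the start, went from 5.04 and 6.0 CPM at E14 to 18.8 and 19.96 CPM at E16.5. The region overlaps that of the noncoding gene E130114P18Rik and shares reads with it.

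The Nfix region (chr8:87293268-87303267, mm9, minus strand) held 13.1 and 14.0 CPM at E14, 23.1 and 24.5 CPM at E16.5, 38.8 and 40.2 CPM at E18, 47.9 and 55.5 CPM at P0 and 78.3 and 85.0 CPM at P2. From E14 on, no stage overlapped the next. The log2 fold change from E14 was 0.83 ± 0.16 (SE, edgeR adjusted p = 1.34e-05) at E16.5 and 2.44 ± 0.16 (SE, edgeR adjusted p = 8.33e-50) at P2. The E16.5 call was lost without E14 replicate 1 (edgeR adjusted p = 0.223) or replicate 2 (0.084).

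Zfp36l1, an RNA-binding protein, held 75.1 and 72.3 CPM at E12.5, 114 and 134 CPM at E14 and 122 and 132 CPM at E16.5, and the last of these stages overlapped. Of 13 late progenitor genes, each by its region of highest CPM, 5 were called higher and 0 lower at P2 against E14 (edgeR, median log2 0.39, against 0.02 over all regions).

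The Pou2f1 region (chr1:167860079-167870078, mm9, minus strand) held 6.69 and 6.08 CPM at E14, 26.5 and 26.8 CPM at E16.5 and 75.2 and 57.0 CPM at P2, each of these stages above the one before. The log2 fold change at P2 was 3.24 ± 0.16 (SE, edgeR adjusted p = 3.03e-91). Its leading window, in an intron 300 bp upstream of this start, went from 0.355 and 0.379 CPM at E14 to 7.57 and 6.94 CPM at E16.5. Pou2f1 stands in the list of early progenitor genes, of which, by the region of highest CPM, 0 of 13 were called higher and 5 lower at P2 (edgeR, median log2 −0.52).

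Notch signalling keeps progenitors from differentiating, and its receptor Notch1, its ligand Dll4 and the Fringe enzymes Lfng and Mfng, which modify the receptor, lie in opening regions. Notch1 held 145 and 159.7 CPM at E14, 219.9 and 206 CPM at E16.5 and 253 and 206 CPM at P2, without a call (edgeR adjusted p = 0.832 and 0.333). Dll4 held 58.0 and 58.0 CPM at E14, 82.3 and 78.6 CPM at E16.5 and 104 and 107 CPM at P2, where its log2 fold change was 0.71 ± 0.23 (SE, edgeR adjusted p = 0.0152). In both genes the later libraries lay above those of E14.

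Lfng held 96.3 and 102 CPM at E14, 182 and 168 CPM at E16.5 and 217 and 183 CPM at P2, with a log2 fold change at P2 of 0.87 ± 0.30 (SE, edgeR adjusted p = 0.0288). The P2 calls of Dll4 and Lfng were lost without any 1 of the E14 and E16.5 libraries (edgeR adjusted p 0.0765 to 0.468 and 0.181 to 0.594), and that of Lfng with a replicate block (0.0948). Mfng held 30.0 and 34.0 CPM at E14, 47.2 and 39.5 CPM at E16.5 and 70.02 and 76.0 CPM at P2, with a log2 fold change at P2 of 1.03 ± 0.17 (SE, edgeR adjusted p = 1.18e-07). Of 16 genes of the Notch list, 3 were called higher and 1 lower at P2 (edgeR, median log2 0.04).

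Hedgehog signalling promotes progenitor division, and its effector Gli1 and its inhibitor Hhip are members. Hhip held 45.6 and 45.2 CPM at E14, 96.6 and 103 CPM at E16.5 and 124 and 112 CPM at P2, with log2 fold changes of 1.15 ± 0.23 (SE, edgeR adjusted p = 0.00011) and 1.23 ± 0.23 (SE, edgeR adjusted p = 5.29e-06). The P2 call was lost without an E14 library (edgeR adjusted p 0.0659 to 0.0768), and the E16.5 call without an E14 library or E16.5 replicate 2 (0.112 to 0.456). Gli1 held 75.5 and 76.0 CPM at E14, 124 and 126 CPM at E16.5 and 137 and 104 CPM at P2, above E14 in every library but without a call (edgeR adjusted p = 0.108 and 0.135). Of 12 Hedgehog genes, 2 were called higher and 1 lower at P2 (edgeR, median log2 −0.18).

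Among general progenitor factors, Sox2 had 66.2% and Six3 45.7% of the rise to E18 and P0 by E14. Sox2 held 78.6 and 71.6 CPM at E12.5, 118 and 119 CPM at E14 and 140.4 and 155 CPM at E16.5. Six3, a homeobox factor of eye formation, held 98.5 and 84.9 CPM at E12.5, 131 and 134 CPM at E14 and 156 and 178 CPM at E16.5. The rule chose both regions by low counts at E12.5, so these shares and the step from E12.5 to E14 are a description. Neither E16.5 nor P2 gave a call against E14 in either gene (edgeR adjusted p of 0.407 or more). Over 13 general progenitor genes the median log2 fold change from E14 was 0.15 at E16.5 and 0.04 at P2.

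Olig2, a bHLH factor of dividing progenitors, held 59.3 and 62.7 CPM at E14, 85.7 and 84.4 CPM at E16.5 and 109 and 113 CPM at P2, each of these stages above the one before. Its log2 fold change at P2 was 0.71 ± 0.23 (SE, edgeR adjusted p = 0.0191), a call lost without any 1 of the E14 and E16.5 libraries (edgeR adjusted p 0.094 to 0.537). Its leading window, at the start, went from 6.43 and 6.15 CPM at E14 to 9.96 and 8.86 CPM at E16.5. Insm1, a zinc finger factor of new neurons, held 194 and 189 CPM at E14, 234 and 247 CPM at E16.5 and 233 and 186 CPM at P2, where it overlapped E14.

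Ptf1a, which directs amacrine and horizontal fates, held 40.4 and 39.9 CPM at E14, 63.3 and 65.9 CPM at E16.5 and 75.6 and 85.2 CPM at P2, with log2 fold changes of 0.70 ± 0.20 (SE, edgeR adjusted p = 0.0152) and 0.84 ± 0.20 (SE, edgeR adjusted p = 0.000334). Both were lost without an E14 library (edgeR adjusted p 0.152 to 0.171 at P2), and the first without an E16.5 library too. Of 16 neurogenic genes, 5 were called higher and 1 lower at P2 (edgeR, median log2 0.39).

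Rlbp1, the retinaldehyde-binding protein of Mueller glia, is the only member from the list of Mueller glia genes. Its region held 10.0 and 10.2 CPM at E14, 29.5 and 28.9 CPM at E16.5 and 61.3 and 63.8 CPM at P2, each of these stages above the one before. Its log2 fold change was 1.55 ± 0.15 (SE, edgeR adjusted p = 7.2e-22) at E16.5 and 2.47 ± 0.15 (SE, edgeR adjusted p = 1.88e-56) at P2. The leading window, 1900 bp upstream, went from 0.443 and 0.379 CPM at E14 to 9.5 and 8.51 CPM at E16.5. Of 15 Mueller glia genes, 6 were called higher and 0 lower at P2 (edgeR, median log2 0.27).

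Hopx, a small homeodomain protein, held 37.2 and 34.7 CPM at E14, 61.8 and 65.0 CPM at E16.5 and 82.1 and 75.5 CPM at P2, with a log2 fold change at P2 of 0.99 ± 0.19 (SE, edgeR adjusted p = 8.86e-06). Klf9, a Krüppel-like factor, held 60.3 and 62.1 CPM at E14, 77.1 and 78.4 CPM at E16.5 and 121 and 106 CPM at P2, with 0.75 ± 0.23 (SE, edgeR adjusted p = 0.0116). Gpm6b, a membrane proteolipid, held 16.5 and 14.5 CPM at E14, 34.7 and 39.4 CPM at E16.5 and 35.5 and 33.3 CPM at P2, with 1.01 ± 0.14 (SE, edgeR adjusted p = 2.32e-10). In all 3 the E14 libraries lay below those of E16.5 and P2. The P2 call of Klf9 was lost without any 1 of the E14 and E16.5 libraries (edgeR adjusted p 0.0725 to 0.471) and that of Hopx without E14 replicate 2 (0.0727), and that of Gpm6b was kept.

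**Figure D4:**
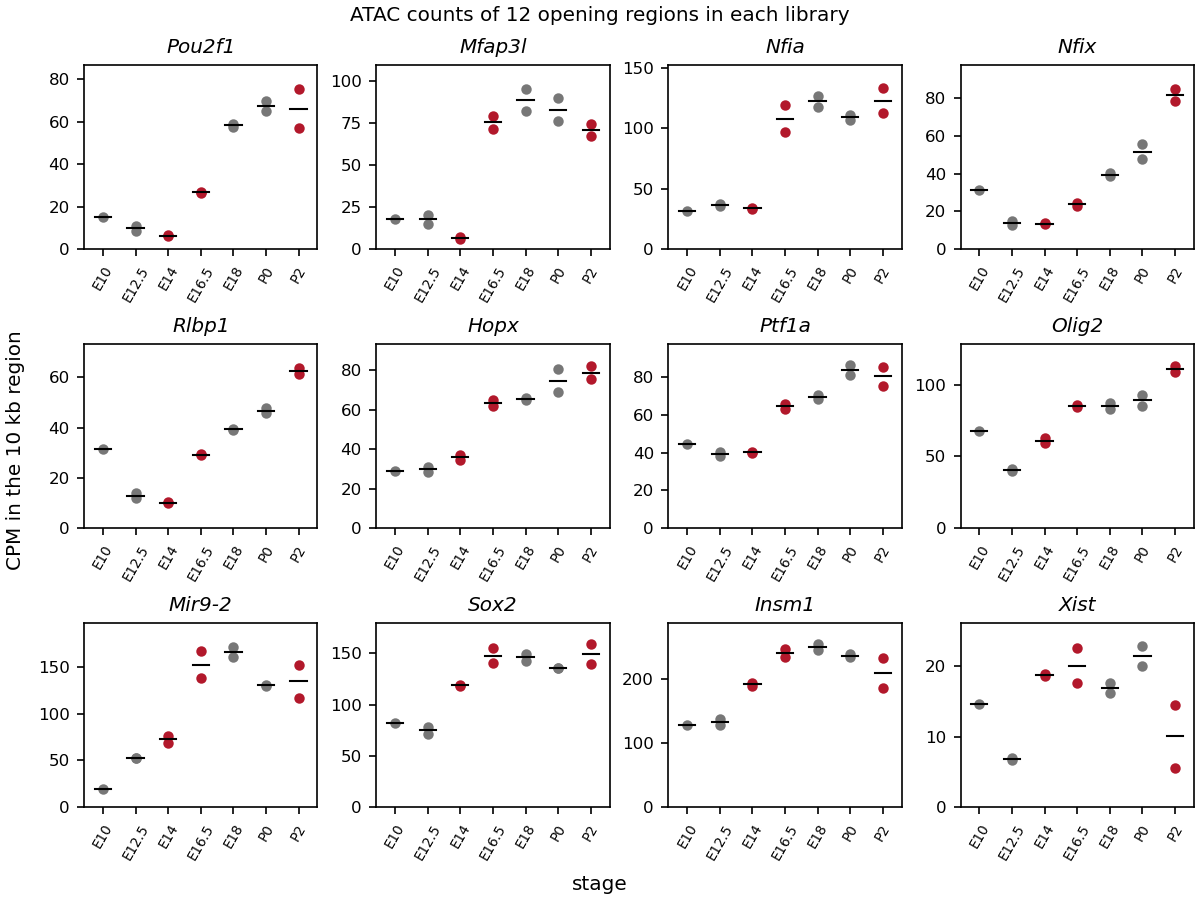
ATAC CPM in each of the 13 libraries for 12 opening regions, by stage. Points are libraries, short lines are stage means, and red points are the stages that the rule did not use (E14, E16.5 and P2). Sox2 and Insm1 are high at E14, Nfia and Mir9-2 step up at E16.5, Nfix and Rlbp1 climb to P2, and Xist is low at E12.5 and in P2 replicate 2.

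The loci of miR-9 differed in course. Mir9-2 held 76.1 and 69.1 CPM at E14, 138 and 167 CPM at E16.5, 172 and 161 CPM at E18 and 153 and 117 CPM at P2, and had its highest mean at E18. Mir9-3 held 38.1 and 36.4 CPM at E14, 54.2 and 56.5 CPM at E16.5, 70.1 and 74.8 CPM at E18 and 92.4 and 105 CPM at P2, and had its highest mean at P2. The log2 fold changes at P2 were 0.76 ± 0.27 (SE, edgeR adjusted p = 0.0344) for Mir9-2 and 1.25 ± 0.20 (SE, edgeR adjusted p = 2e-08) for Mir9-3, and their difference was not tested. The call of Mir9-2 was lost without any 1 of the E14 and E16.5 libraries (edgeR adjusted p 0.164 to 0.648) and with a replicate block (0.096), and that of Mir9-3 was kept.

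Mir124a-1, the precursor of a neuronal microRNA, held 49.7 and 54.1 CPM at E14 and 122 and 117 CPM at P2, with a log2 fold change of 1.05 ± 0.23 (SE, edgeR adjusted p = 8.74e-05), lost without E14 replicate 1 or 2 (edgeR adjusted p 0.0792 to 0.188). Mir7-2 held 58.3 and 59.3 CPM at E14 and 92.9 and 70.3 CPM at P2, above E14 but without a call (edgeR adjusted p = 0.267). Mir378b held 17.3 and 20.1 CPM at E14 and 68.5 and 61.3 CPM at E16.5, with a log2 fold change of 1.81 ± 0.18 (SE, edgeR adjusted p = 1.05e-19). Mature microRNAs were not analysed here.

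The largest changes at P2 among named genes belonged to regions that were low at E14. Tmprss5, a membrane serine protease, held 1.51 and 2.18 CPM at E14, 11.1 and 10.3 CPM at E16.5 and 31.7 and 29.0 CPM at P2, with 3.89 ± 0.26 (SE, edgeR adjusted p = 2.86e-49). Krt15, a keratin, went from 3.69 and 3.89 CPM to 53.0 and 55.5 CPM, with 3.68 ± 0.16 (SE, edgeR adjusted p = 2.54e-109). Fxyd3, a regulator of the sodium pump, went from 6.83 and 6.14 CPM to 73.6 and 70.1 CPM, with 3.33 ± 0.16 (SE, edgeR adjusted p = 4.08e-91). The E10 library held 20.5 CPM, 34.4 CPM and 26.4 CPM in these regions, above both E12.5 libraries. That library was high away from starts in general. In the outermost windows of the members its median was 0.526 CPM per window, against 0.21 and 0.215 CPM at E12.5. The part of this in the E10 values was not tested, so no opening at E10 is read from them. Mfap3l had the largest change at E16.5, from 7.34 and 6.3 CPM to 71.7 and 78.9 CPM, with 3.48 ± 0.20 (SE, edgeR adjusted p = 1.51e-66), and its leading window lay in an intron 2100 bp downstream of the start.

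Xist, the RNA of X inactivation, was the member that fell. It held 6.72 and 6.93 CPM at E12.5, 18.6 and 18.9 CPM at E14, 17.6 and 22.6 CPM at E16.5 and 14.5 and 5.53 CPM at P2, with −0.97 ± 0.19 (SE, edgeR adjusted p = 7.68e-06). DESeq2 did not call it (adjusted p = 0.286), and the P2 libraries differ widely. Chromosome Y took 0.0062% and 0.0059% of counts at E12.5, 0.0025% and 0.0022% at E14, 0.001% and 0.0011% at E16.5 and 0.0042% and 0.0066% at P2, so that the E12.5 libraries and P2 replicate 2, lowest in Xist, were the highest in chromosome Y among these 4 stages. The region also holds part of Tsix, its antisense gene, and the counts are not stranded. The E12.5 libraries and P2 replicate 2 were also the lowest among these stages in central over outermost counts (19.9, 18.5 and 12.2 times). The parts of this and of the sex of the embryos were not tested. Abcd4 held 259 and 244 CPM at E14, 300.1 and 325 CPM at E16.5 and 216 and 212 CPM at P2, without a call.

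RNA levels were read for 112 of 139 symbols, of which 88 passed the filter of 1 FPKM in 2 libraries. A gene that passed only through a late group had to differ, so the counts below support nothing about all members. In GFP+ cells from E14 to P2, 11 of the 88 rose and 0 fell (limma, adjusted p under 0.05), beside 0.932% and 0.217% of all 14276 genes. From E14 to E18, 16 rose and 2, Six3 and Abcd4, fell, beside 4.36% and 4.06%. From E18 to P2, 9 rose and 2, Prss56 and Baz2b, fell, beside 4.47% and 3.51%. Fewer cells of a type and less RNA per cell cannot be told apart. The log2 differences are on the scale of FPKM plus 1, which understates change in low genes.

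The E14 GFP+ libraries differed widely, replicate 1 first: Gli1 stood at 72.3 and 0.357 FPKM, Olig2 at 21.9 and 1.61 FPKM and Hhip at 15.0 and 0.103 FPKM. Lens genes summed to 0.45 to 113 FPKM there, and their part was not tested. The calls from E14 to P2 numbered 33, all higher, without E14 GFP+ replicate 1, beside 2.19% and 1.11% of all genes higher and lower, and 4 without P2 GFP+ replicate 1, beside 0.105% and 0.0%. Those from E14 to E18 numbered 38 without E14 GFP+ replicate 1, 6 without replicate 2, and 5 without either E18 GFP+ library. Those from E18 to P2 numbered 4 without P2 GFP+ replicate 1 or either E18 GFP+ library, and 6 without P2 GFP+ replicate 2.

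Nfix stood at 1.43 and 0.0657 FPKM in E14 GFP+ cells, 5.1 and 5.23 FPKM at E18 and 72.2 and 55.8 FPKM at P2, with no overlap between ages. Its log2 difference from E14 to P2 was 5.33 ± 0.43 (SE, limma adjusted p = 0.00204). In P2 GFP- cells it stood at 24.3 and 47.7 FPKM, below both GFP+ libraries. Nfia stood at 5.78 and 0.22 FPKM at E14, 15.4 and 17.7 FPKM at E18 and 18.2 and 20.4 FPKM at P2, with 2.82 ± 0.70 (SE, limma adjusted p = 0.107), which is not a call.

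Rlbp1 stood at 2.66 and 0.414 FPKM at E14, 14.6 and 15.4 FPKM at E18 and 188 and 79.5 FPKM at P2, with 5.76 ± 0.66 (SE, limma adjusted p = 0.00847). The call was lost without E14 GFP+ replicate 2 (limma adjusted p = 0.058) or P2 GFP+ replicate 1 (0.104). Hkdc1, a hexokinase-like enzyme, stood at 8.87 and 0.416 FPKM at E14 and 129 and 115 FPKM at P2, with 5.04 ± 0.75 (SE, limma adjusted p = 0.0245), and was lost without either P2 GFP+ library (limma adjusted p 0.129 to 0.248) and with a pseudocount of 0.1 (0.0614). The other 8 that rose were Arhgef19, Myh14, Tmprss5, Rag1, Cxcl16, Mfap3l, Krt15 and Fxyd3, with log2 differences from 1.69 (Fxyd3) to 4.08 (Arhgef19). Without P2 GFP+ replicate 1, the calls of Myh14, Rag1, Mfap3l, Krt15 and Fxyd3 were lost (limma adjusted p 0.0874 to 0.186). Those of Krt15 and Fxyd3 were also lost without P2 GFP+ replicate 2, and those of Mfap3l, Krt15 and Fxyd3 without E14 GFP+ replicate 2 (0.0636 to 0.0962). In a fit of the E14 and P2 GFP+ libraries alone, 0 of the 11 were called (limma, 39 members at an unadjusted p under 0.05), with an adjusted p of 0.0671 for Nfix, and 0.0% of all genes in each direction.

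Prss56 and Six3 set E18 apart in opposite directions. Prss56, a serine protease, stood at 1.26 and 0.015 FPKM at E14, 51.8 and 58.8 FPKM at E18 and 4.15 and 2.96 FPKM at P2 in GFP+ cells, with 5.21 ± 0.35 (SE, limma adjusted p = 5.56e-05) from E14 to E18. Irx5, a homeobox factor, stood at 4.14 and 0.373 FPKM at E14 and 55.2 and 55.0 FPKM at E18, with 4.40 ± 0.85 (SE, limma adjusted p = 0.0164), lost without E14 GFP+ replicate 2 or either E18 GFP+ library (limma adjusted p 0.11 to 0.111). Six3 stood at 141 and 84.7 FPKM at E14, 13.6 and 15.1 FPKM at E18 and 137 and 147 FPKM at P2, and its value at E18 was −2.85 ± 0.34 (SE, limma adjusted p = 0.00177). In GFP- cells Six3 was low at E18 as well, at 15.3 and 17.2 FPKM. The fall of Abcd4 at E18 was lost without any 1 of the libraries compared (limma adjusted p 0.07 to 0.242), as was that of Baz2b from E18 to P2 (0.174 to 0.209), whereas those of Six3 and Prss56 were kept. The E18 libraries are those with high Malat1 and histone RNA. In every contrast of E18 with another age, age and this difference between libraries cannot be told apart, and its part was not tested.

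**Figure D5:**
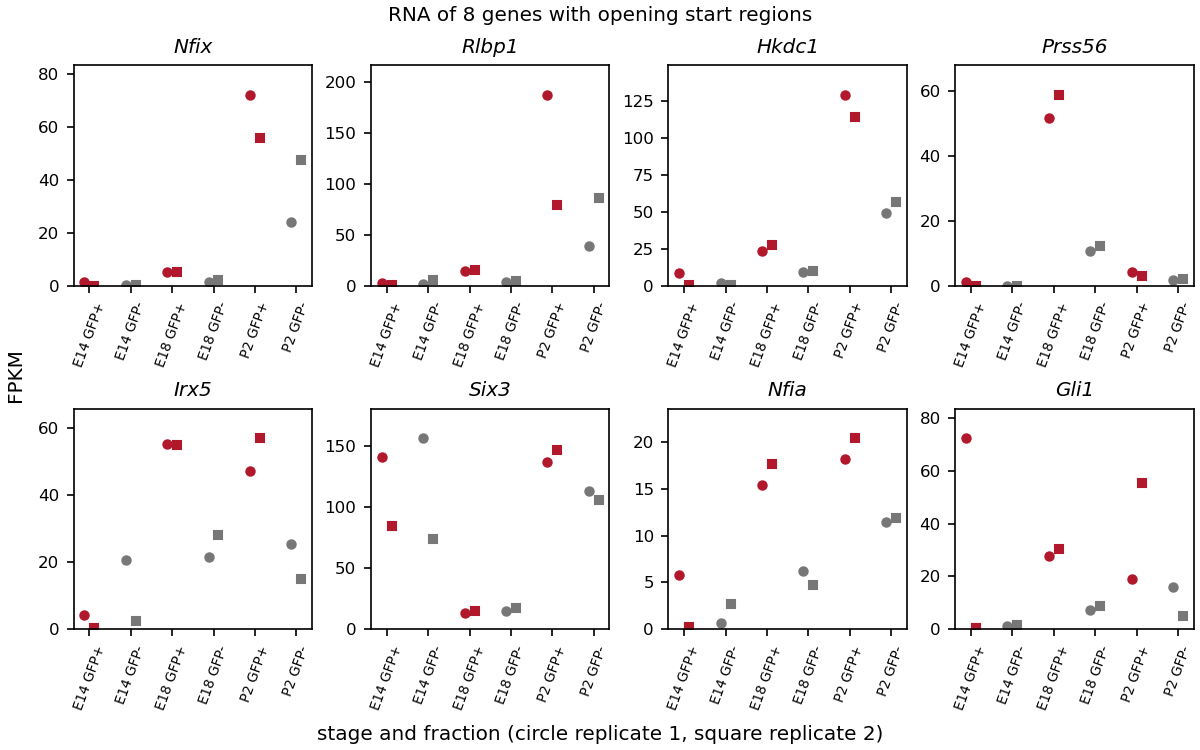
RNA level (FPKM) of 8 genes with opening start regions in the 12 RNA libraries, by stage and fraction, with GFP+ in red and GFP- in grey. Nfix, Rlbp1 and Hkdc1 are highest at P2 and Prss56 at E18, Six3 is low in all 4 E18 libraries, and the E14 GFP+ replicates stand apart for Gli1.

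Between the fractions, the median log2 difference of the 88 members (GFP+ over GFP-) was 0.84 at E18 and 0.69 at P2, against 0.00 over all genes, and few members were called. In fits of only the 4 libraries of an age, 56 were called higher and 6 lower at E18, beside 29.6% and 29.7% of all genes, and 39 and 2 at P2, beside 11.4% and 13.8%. With all 12 libraries in the fit, at E18, Prss56 and Mrpl42, a mitochondrial ribosomal protein, were higher in GFP+ cells and 0 were lower, beside 1.13% and 2.49% of all genes. Prss56 stood at 10.7 and 12.3 FPKM in GFP- cells there. Without any 1 of the 4 E18 libraries, 0 were called (limma, 7 to 11 at an unadjusted p under 0.05). At P2, Abcd4 was higher and Apobec2, of the cytidine deaminase family, lower, beside 0.112% and 1.37%, and 0 or 1 was called without 1 P2 library. At E14, 0 were called (limma, 21 at an unadjusted p under 0.05), beside 0.0% of all genes in each direction, whereas 23 were called higher and 7 lower without E14 GFP- replicate 2, beside 23.9% and 24.7% of all genes, and 14 and 0 without E14 GFP+ replicate 2, beside 0.579% and 0.254%. The change of this difference from E18 to P2 was called for 0 of the 88 (limma interaction, 5 at an unadjusted p under 0.05), beside 0.028% higher and 0.07% lower.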

How the data were processed

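The ATAC table deposited by the authors holds an unnormalized read count per library in 1424448 windows of 200 bp, on mm9 by its chromosome ends. Runs of 50 windows with one identifier were summed to 28329 regions, 28175 of them on placed chromosomes, and 7998 other windows were not used. CPM are counts over the library's total on placed chromosomes. The RNA table deposited by the authors holds FPKM, a unit inferred from the values, so RNA depth is unknown. The submitters' processing notes name Bowtie2, HISAT2, Picard 2.10.7, SAMtools 1.5, featureCounts 1.5.3 and bedtools 2.26.0, and also mm9 and mm10, with no roles. Counts of E14, E16.5 and P2 were fitted with edgeR 4.0.16 (quasi-likelihood, TMM, default count filter), with DESeq2 1.42.0 as an alternative. An SE of an ATAC value is its log2 size divided by the square root of F. RNA was fitted with limma 3.58.1 with a trend on log2(FPKM + 1) over 12 libraries in 6 groups. Benjamini-Hochberg adjustment ran over all features, with a threshold of 0.05. The fits were tested on simulated data. Other scalings, filters, pseudocounts and sets of libraries were tried. The members, gene lists and tests were chosen with earlier results of these data known. The rule for named genes takes list genes, the 12 highest ratios, the largest called changes, the regions nearest the threshold and the 6 highest levels, leaving out predicted genes. Hopx, Klf9, Gpm6b, E130114P18Rik and the microRNA genes other than Mir378b were named after their values were seen. Some members that the rule names are not reported here. Overlapping regions share reads, and no strand was used.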

Additional observations from a re-analysis of the deposited data

How the results depend on the processing

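The number of members was 366 with a 1.5-fold threshold, 66 with a 2-fold one and 359 with TMM-scaled CPM, and between 140 and 153 with a CPM minimum of 5 or 20 or, an alternative added after seeing the data, with unplaced sequence in the total. Calls among members under the other fits stayed within 1.5 times for each ATAC contrast, except 87 for P2 against E16.5 with library totals. For RNA, a fit of only the libraries compared gave 0 calls for P2 against E14 in GFP+ cells (limma, 39 at an unadjusted p under 0.05), 45 for P2 against E18, 62 for GFP+ against GFP- at E18 and 41 at P2. A pseudocount of 0.1 gave 6 for P2 against E18 and 0 for GFP+ against GFP- at E18 (limma, 15 unadjusted). No filter gave 5 for GFP+ against GFP- at E18 and 1 at P2, and quantile scaling 10 and 1. The cause was not tested. Leaving out 1 library gave 47 to 132 calls for E16.5 against E14, 77 to 139 for P2 against E14, 26 to 112 for P2 against E16.5, and 71 to 128 and 48 to 128 for P2 against E14 in the central and flanking parts. In RNA it gave 4 to 33 for P2 against E14, 5 to 38 for E18 against E14, 4 to 6 for P2 against E18, 0 for GFP+ against GFP- at E18 (limma, 7 to 11 unadjusted), 0 to 1 at P2 and 0 to 30 at E14. With a single library left in a group, it is assumed to vary like the other groups. Replicate numbers did not pair the ATAC libraries by a correlation over 0.1 in every pair of stages: r of replicate differences ran from −0.365 (E14 with E16.5) to 0.42 (E14 with E18) over 15 pairs, and was −0.152 and 0.178 for P2 with E14 and with E16.5. With the replicate number as a block, the calls were 74, 107 and 45 for the 3 ATAC contrasts of 10 kb regions, 1 for GFP+ against GFP- at E18 and 0 at P2 (limma, 15 unadjusted). At P2 the replicates of GFP+ and GFP- cells moved oppositely (r = −0.558), and a block with the GFP- numbers crossed, chosen after seeing the data, gave 2. No direction reversed among the called values of the named members.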
